A study of Mus musculus with 5 samples.

Results

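The renin-angiotensin genes Agt, Ren1, Ace, Enpep, Lnpep, Agtr1a, Agtr2 and Atp6ap2 were followed through the cells of the mouse ovary at 2, 3, 4, 5 and 6 wk of age. These 8 genes were a fixed list, taken by symbol from the 31053 genes of the count tables, and each of them had UMIs (unique molecular identifiers, one per RNA molecule read) at all 5 ages. Ovaries of untreated C57BL6/J mice were dissociated with trypsin, live cells were sorted by exclusion of the dye SYTOX Orange, and 1 library per age was made with the 10x Genomics 3′ chemistry, which reads the 3′ end of each RNA. How many animals went into a library is not given in the sources used here. Because each age is 1 library, ages could not be tested against each other. Cell classes were compared within each library, and no test over the 5 libraries, which differ in age, was run. A level is the sum of a gene's UMIs over the cells of a class, divided by all UMIs of those cells and multiplied by 1000000 (CPM), and every interval given is an exact 95% interval that covers counting error only, not the spread between mice.

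In the renin-angiotensin system the protease renin cuts angiotensinogen, the precursor protein encoded by Agt, to angiotensin I. Angiotensin-converting enzyme trims this peptide to angiotensin II, which constricts vessels through the AT1 receptor and acts in other, often opposing, ways through the AT2 receptor, while aminopeptidases shorten it further. Besides the circulating system fed by liver and kidney, a local system is known in the ovary, where renin and its precursor prorenin are associated with theca cells and angiotensin II with follicle growth, ovulation and atresia.

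The 8 genes lie on 7 chromosomes (GRCm38 coordinates). Agt occupies chr8:124556534-124569706 and Ren1 chr1:133350510-133360325. Ace lies at chr11:105967945-105989964, Enpep at chr3:129269175-129332720 and Lnpep at chr17:17521410-17625050. The receptor genes are Agtr1a at chr13:30336441-30382867 and Agtr2 at chrX:21484544-21489164, and Atp6ap2 lies at chrX:12587801-12617049. Mice of this strain carry a single renin gene, Ren1, whereas the AT1 receptor has a second copy, Agtr1b. No window of 91 bases, the length of the RNA read, was shared between the transcripts of Agtr1a and Agtr1b among 3045 windows, and Agtr1b itself had 26 UMIs in all cells, so reads of these copies could be told apart.

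The bases just before the transcription start are shown because some of the genes have the letters TATAAA, the core of a TATA box, there. These letters did not divide genes of few classes from genes of many: Agt and Ren1 both have them, and Agt was found widely and Ren1 in few classes. The windows hold the 60 bases upstream of the RefSeq start (GRCm38.p6), written along the gene's strand. Capitals mark TATAAA, the core of the TATA box, or its reverse complement TTTATA.
Agt, chr8:124569707-124569766, minus strand: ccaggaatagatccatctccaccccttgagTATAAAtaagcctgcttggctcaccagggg
Ren1, chr1:133350614-133350673, plus strand: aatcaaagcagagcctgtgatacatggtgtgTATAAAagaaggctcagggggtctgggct
Ace, chr11:105967888-105967947, plus strand: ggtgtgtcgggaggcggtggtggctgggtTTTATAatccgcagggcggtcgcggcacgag
Enpep, chr3:129332750-129332809, minus strand: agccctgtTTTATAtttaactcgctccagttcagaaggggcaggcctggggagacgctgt
Agtr2, chrX:21484564-21484623, plus strand: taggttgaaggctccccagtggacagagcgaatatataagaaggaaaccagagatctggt
Atp6ap2, chrX:12587699-12587758, plus strand: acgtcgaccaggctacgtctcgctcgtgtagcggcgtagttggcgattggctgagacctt
Lnpep, chr17:17624490-17624549, minus strand: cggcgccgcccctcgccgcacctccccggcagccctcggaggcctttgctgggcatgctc
The match lay 30 bases before the start in Agt and 29 bases before it in Ren1, on the gene's own strand. In Ace and Enpep it lay on the opposite strand, 31 and 52 bases upstream. The letters were found in 4 of the 8 windows of the 7 genes that the reference table lists (Ace has a further start), against 3.92% of the same windows of 32851 promoters. They were not in the windows of Agtr2, Atp6ap2 and Lnpep. These are matches of exact letters, and variants of the TATA box were not searched. The Agtr2 window holds the near match tatataa on the gene's own strand, so it cannot be said to lack a TATA box. Agtr1a was not in the table.

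The libraries held 9471, 9253, 11077, 7779 and 10583 cells and between 93438618 and 144609431 UMIs, with a median of 9056 to 12424 UMIs per cell. Cells were clustered again with Seurat, with the variable renin-angiotensin genes left out so that they could not shape the clusters, and 30431 cells fell into classes named from marker genes, written as "-like". Each class used below had all of its markers above 0, which does not test the names, since they were given from the same markers. All 8 of the 8 theca markers were highest in their own class. For early theca-like cells this held for 1 of 7 markers, for Hoxd9 stromal-like 2 of 6, for Cxcl12 stromal-like 2 of 7 and for remodeling-like granulosa 6 of 10. The remaining 17732 cells (36.8%) stayed unnamed, and 273 of 47890 distinct cell barcodes (0.570%) occurred in more than 1 library. The 2, 3 and 4 wk tables came from Cell Ranger 3.1.0 and the 5 and 6 wk tables from 6.0.1, so software version and age cannot be told apart. The remodeling-like granulosa clusters, named for the cells that line follicles undergoing atresia, expressed Tagln at 161 to 184 CPM and Acta2 at 178 to 286 CPM, and Tagln was among the top genes of cluster g5. The defining smooth muscle genes Myh11 and Cnn1 were at 1.63 to 3.82 and 0.717 to 1.32 CPM there, against 1836 and 775 CPM in the smooth muscle-like class.

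**Figure D1:**
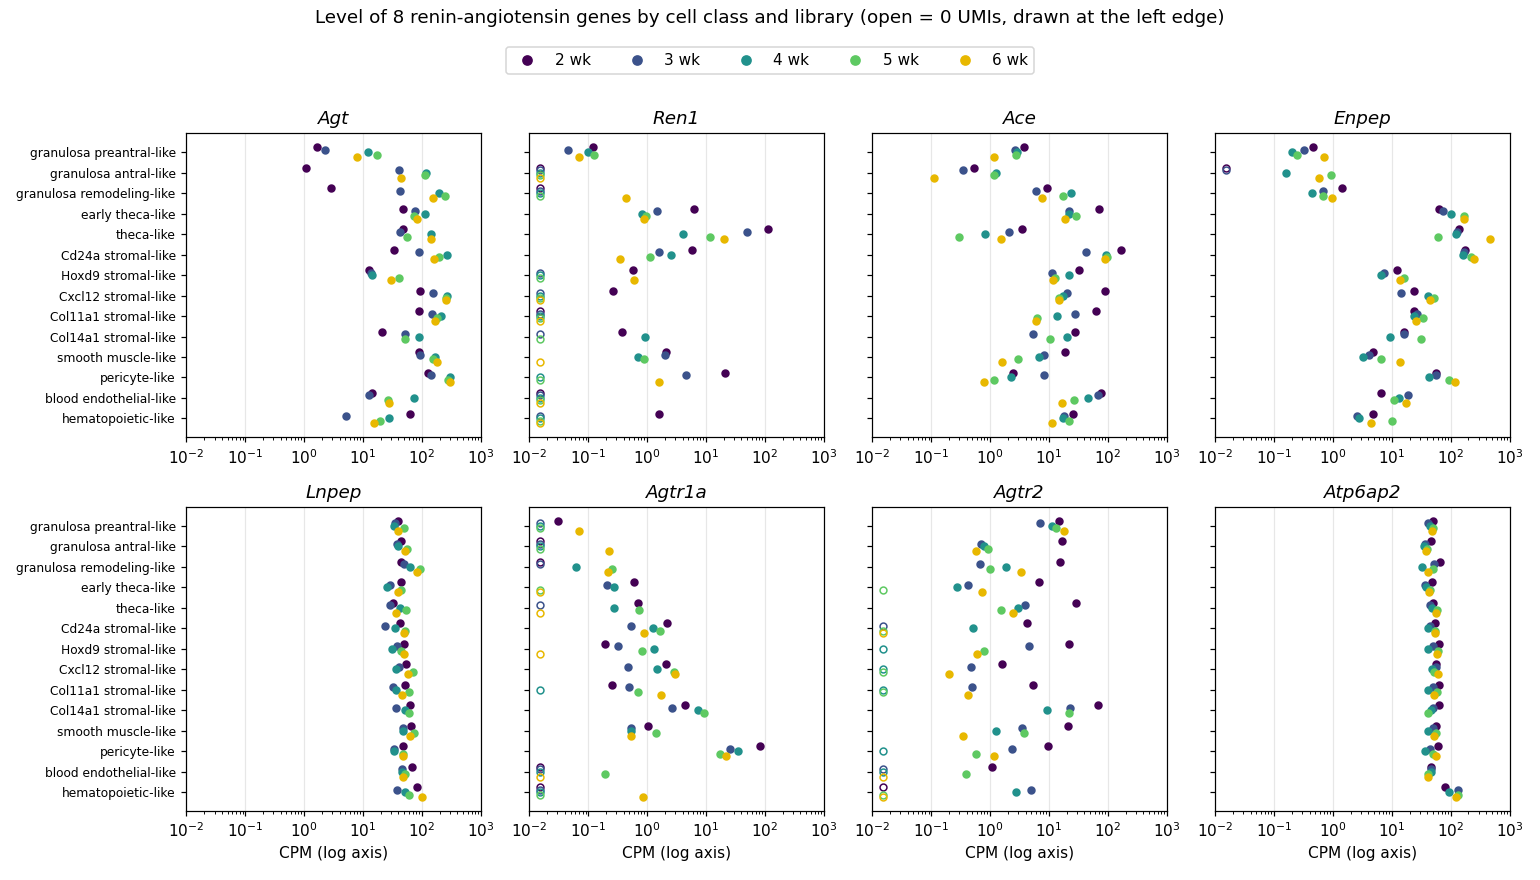
Level in CPM (log axis) of each of the 8 genes in 14 cell classes; each point is 1 library, colored by age, shown where the class had at least 50 cells, and open points mark 0 UMIs. Agt is higher at the later ages in many classes, Ren1 stands out in theca-like cells, Agtr1a in pericyte-like cells and Enpep in theca-like and Cd24a stromal-like cells, whereas Lnpep and Atp6ap2 form narrow columns.

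The 8 genes were spread over different cells of the ovary, and no class held all of them. At 10 CPM or more with the libraries summed, between 3 and 6 of the 8 were found in a class. Theca-like cells were the only named class with Ren1 above this level, and pericyte-like cells the only one with Agtr1a. The granulosa-like classes had Enpep below 1 CPM. Granulosa-like cells of preantral follicles and Col14a1 stromal-like cells were the only classes with Agtr2 above 10 CPM.

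Agt, the gene of the substrate, was the member with the broadest change. Over all cells its level was 29.3, 40.7, 116, 109 and 96.0 CPM at 2, 3, 4, 5 and 6 wk. It had 46688 UMIs in 16081 cells (33.4%), and remodeling-like granulosa cells held 17.7% of them with 7.5% of all UMIs. With the libraries summed, the order of the classes ran from pericyte-like cells (248 CPM, 237 to 260) over Cxcl12 stromal-like (209 CPM, 202 to 216) and remodeling-like granulosa cells (186 CPM, 182 to 190) to Cd24a stromal-like cells (148 CPM, 143 to 153). The ranges of the single libraries overlapped between all of these neighbors, and the full order did not hold in every library. Cxcl12 stromal-like cells were above remodeling-like granulosa cells at all 5 ages. Pericyte-like cells were under Cxcl12 stromal-like cells at 3 wk, and remodeling-like granulosa cells were above Cd24a stromal-like cells only at 5 wk.

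Remodeling-like granulosa cells contained Agt at 2.83 CPM at 2 wk, 42.0 CPM at 3 wk, 194 CPM at 4 wk, 249 CPM at 5 wk and 157 CPM at 6 wk. Cluster g9 made up 113 of the 125 cells of this class at 2 wk and 113 of 171 at 3 wk, whereas at 4 wk it had 678 cells of cluster g3, 424 of g5 and 205 of g9, so the mix of clusters differed between the ages. In antral-like granulosa cells, which come from follicles with a fluid cavity, the levels were 1.06, 40.8, 117, 114 and 44.4 CPM. Both groups were thus near the floor at 2 wk and alike at 3 wk, and from 4 wk on every remodeling-like value was above every antral-like one. Preantral-like cells stayed lower, at 1.63, 2.26, 12.4, 17.3 and 7.88 CPM. Preantral-like clusters g2, g7 and g11 had no preantral marker among their leading genes. Cluster g2 had a stromal gene there, g7 was led by Uhrf1, Pclaf and Mcm3, and g11 by Ifi204, Mndal and Ifi203. Agt in g2 was 0.398 to 8.42 CPM, and the other clusters of the class had no more than 38.5 CPM at any age.

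As a ratio, remodeling-like over antral-like, Agt was 1.03 (0.744 to 1.41) at 3 wk, 1.66 (1.53 to 1.80) at 4 wk, 2.18 (1.98 to 2.40) at 5 wk and 3.53 (3.17 to 3.94) at 6 wk. The size of the ratio depended on where the clusters were drawn: with other resolutions, without integration or with the renin-angiotensin genes kept for clustering it was between 1.94 and 4.35 at 4 wk, between 2.34 and 5.73 at 5 wk and between 4.03 and 7.51 at 6 wk, so that the call at 4 wk was made in some of them. The denominator moved as well as the numerator, since the antral-like level at 6 wk was lower than at 5 wk. A gene was counted as called when its ratio was at least 2 or at most 0.5 with at least 50 UMIs in both groups together. Of the 8 genes Ace was called higher in remodeling-like cells at 4 wk, Agt and Ace at 5 wk, and Agt, Ace and Agtr2 at 6 wk, with 4, 4 and 5 of the 8 above the UMI limit and none called lower. Over all genes 9.96%, 8.88% and 8.34% were called higher at these ages. At 2 and 3 wk none of the 3 members above the limit was called, against 5.95% and 8.47% of all genes called higher and 3.88% and 7.57% called lower.

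The single clusters showed that the Agt difference was not uniform. Remodeling-like cluster g5, led by Spp1, Cald1 and S100a6, had 297, 340 and 199 CPM at 4, 5 and 6 wk, and cluster g9, led by Pamr1 and H19, had 264, 205 and 181 CPM. Remodeling-like cluster g3, led by Cald1, Fgd5 and Lox, had only 96.0, 126 and 94.3 CPM. Of the antral-like clusters, g12 (Psd, Ccnb2 and Inhba) had 145, 169 and 82.7 CPM and g8 (Inhba, Cyp11a1 and the aromatase gene Cyp19a1) had 49.4, 51.7 and 22.5 CPM. In 5 of the 6 pairs of a remodeling-like with an antral-like cluster the interval lay above 1 at each of these ages. The exception was g3 against g12, with ratios of 0.664 at 4 wk and 0.745 at 5 wk, both below 1 with their intervals, and 1.14 (0.980 to 1.33) at 6 wk. The largest ratios of these 6 pairs, 6.01, 6.57 and 8.87, were those of g5 over g8. Granulosa-like clusters g1, g6 and g10 (1625, 1016 and 690 cells) stayed unnamed and are in neither group. By its best match to the published granulosa clusters (r = 0.919), g1 was grouped as antral, and so was g10 (r = 0.665). The match was also lower for antral-like g8 (r = 0.607), and lower still for remodeling-like g5. Only part of the columns of the published cluster means was read, and all best matches were to published clusters 0 to 9. Of the published clusters, only gc2 and gc7 were set as antral. By this set-up no cluster could be grouped as antral through gc10 or gc13, which the paper also classes as antral. Agt in g3 over g1 was 1.09 at 4 wk, and its interval held 1. At 5 and 6 wk this ratio was 1.16 and 1.23. All other pairs of g3, g5 or g9 with g1, g6 or g10 had intervals above 1 at 4, 5 and 6 wk.

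The share of cells with an Agt UMI told the same order. At 5 wk 65.8% (62.3 to 69.1) of remodeling-like and 46.4% (40.0 to 53.0) of antral-like cells had one, at median depths of 14298 and 18243 UMIs. For hematopoietic-like cells, taken as the background, the share was 5.52% at a median of 4989 UMIs. With each cell thinned to 3000 UMIs the shares were 35.0%, 19.5% and 2.80%. The leading cluster, g5, had Agt in 86.3% (82.0 to 89.9) of its cells before thinning.

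**Figure D2:**
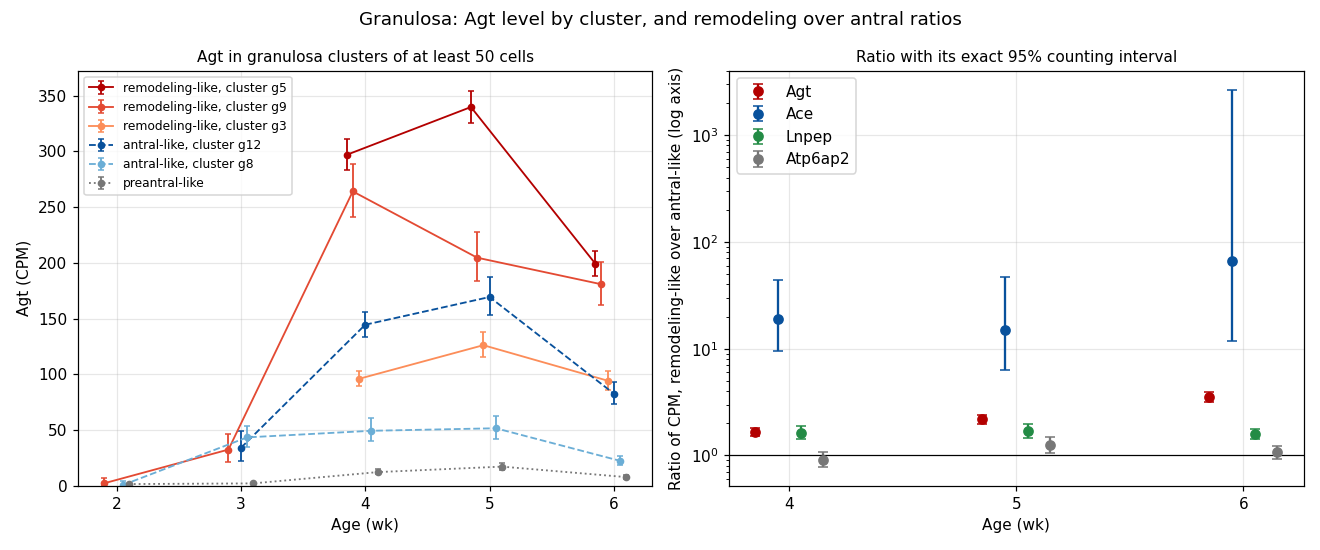
Left, Agt (CPM, with exact 95% counting intervals) by age in remodeling-like (solid) and antral-like (dashed) granulosa clusters and in the preantral-like class (dotted), where at least 50 cells were present; right, the ratio of remodeling-like to antral-like CPM (log axis) at 4, 5 and 6 wk for Agt, Ace, Lnpep and Atp6ap2. Clusters g5 and g9 lie above both antral-like clusters from 4 wk, cluster g3 lies under g12 at 4 and 5 wk, and the Ace ratios are the highest of the 4 genes with the widest intervals.

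Outside the granulosa, Agt was already present at 2 wk and was higher from 4 wk in nearly every class. Pericyte-like cells, named for the contractile cells around capillaries, had 126, 145, 302, 275 and 305 CPM. This class also expressed Myh11 at 1031 CPM, Cnn1 at 61.6 CPM and Acta2 at 4030 CPM. Smooth muscle-like cells had 1836, 775 and 10150 CPM of these genes. Whether the class also holds smooth muscle cells of larger vessels was not tested. Cxcl12 stromal-like cells had 93.2, 154, 265, 260 and 258 CPM, and Cd24a stromal-like cells had 33.2, 87.7, 264, 194 and 163 CPM. In smooth muscle-like cells the levels were 88.4, 91.7, 166, 157 and 178 CPM. At 4 wk the ratio to 2 wk was 2.39 (1.95 to 2.93) in pericyte-like, 2.85 (2.50 to 3.25) in Cxcl12 stromal-like and 7.94 (6.65 to 9.54) in Cd24a stromal-like cells, and 1.88 (1.70 to 2.07) in smooth muscle-like cells. Of the 16 classes with at least 50 cells, granulosa-like ones included, 13 were called higher than at 2 wk at 4 wk, 10 at 5 wk and 11 at 6 wk, and 5 of 15 were at 3 wk. The preantral-like, antral-like, remodeling-like and mitotic granulosa-like classes were all among those called at 4, 5 and 6 wk, and all but the preantral-like at 3 wk. Over all pairs of a gene and a class, 3.9% were called higher at 4 wk, 4.13% at 5 wk, 4.13% at 6 wk and 1.81% at 3 wk, and within a class the share was between 2.11% and 7.55% at 4 wk.

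The only class called lower was hematopoietic-like, and there 23 of the 40 UMIs at 2 wk came from 1 cell. Hoxd9 stromal-like cells remained low, at 12.4, 13.7, 14.4, 40.2 and 30.1 CPM, and Cxcl12 stromal-like cells exceeded them 6.48-fold at 5 wk to 18.5-fold at 4 wk. Blood endothelial-like cells had 14.2, 12.4, 73.6, 26.9 and 28.0 CPM, which was 0.112 (0.0585 to 0.198), 0.0857 (0.0230 to 0.225), 0.244 (0.173 to 0.337), 0.0977 (0.0802 to 0.118) and 0.0919 (0.0670 to 0.123) times the level of pericyte-like cells. Agt was thus lower in the cells that line the vessels than in the mural cells at every age. Against hematopoietic-like cells, the background, the endothelial-like level was 2.71-fold (1.57 to 4.86) at 4 wk and 1.80-fold (1.02 to 3.28) at 6 wk. At 2 wk it was below that background, at 14.2 against 63.7 CPM. Without called doublets the ratio to pericyte-like cells at 4 wk was 0.152, and as a mean of each cell's CPM it was 0.0915.

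Ren1, the gene of renin, was highest in theca-like cells. It had 1230 UMIs in 337 cells, and theca-like cells held 61.1% of its UMIs with 4.6% of all UMIs, and 127 of the 337 cells. Theca-like levels were 112 CPM at 2 wk, 50.2 CPM at 3 wk, 4.06 CPM at 4 wk, 11.8 CPM at 5 wk and 20.4 CPM at 6 wk. All stromal-like groups together had 0.237 to 1.46 CPM, below the lowest theca-like value. The ratio, theca-like over stromal-like, was 76.9 (52.5 to 117), 105 (47.2 to 288), 3.86 (1.66 to 9.30), 32.2 (12.3 to 120) and 86.1 (32.1 to 325) at 2, 3, 4, 5 and 6 wk. Without integration the ratio at 2 wk was 527. Antral-like granulosa cells had no Ren1 UMI in 1468 cells, which allows up to 0.204% of cells with a UMI and sets no limit on cells that express the gene below detection.

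Few cells carried this signal. Of 1509 theca-like cells 127 (8.42%) had a Ren1 UMI, against 1 of 496 hematopoietic-like cells (0.202%), at median depths of 16677 and 6696 UMIs. The 76 cells with most Ren1, 5% of the class, held 93.2% of its UMIs, and the highest cell had 61. At 6 wk 36 of the 66 UMIs lay in 1 cell, and at 4 wk the whole class had 15. At 2 wk 9 of 172 theca-like cells held 73.6% of the UMIs of the class. In the stromal-like groups at that age 21 of the 29 UMIs lay in 1 Cd24a stromal-like cell. The values and ratios, at 2 wk as well as later, thus depend on single cells more than the intervals show.

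Theca-like cells fell into 2 clusters, m8 and m12, and the levels of steroid genes separated them as did Ren1. Cluster m8, led by Cyp11a1 and Cyp17a1, which encode the side-chain cleavage enzyme and the enzyme of androgen synthesis, had 259, 94.3, 7.18, 4.07 and 52.4 CPM of Ren1. Cluster m12 had 27.8, 14.9, 0, 46.3 and 2.87 CPM. At 5 wk the order of the clusters was thus the opposite of that at the other ages. The Cyp17a1 level of m8 was 2692, 180, 673, 3469 and 943 CPM and that of m12 62.4, 0.931, 50.9, 1246 and 21.5 CPM, so that m12 held little of this marker except at 5 wk. Among theca-like cells at 2 wk, the 38 with a Ren1 UMI had 2769 CPM of Cyp17a1 and the 134 without one had 335 CPM, at median depths of 20962 and 15908 UMIs. The order was the same at 3 wk, at 221 CPM in 31 cells and 57.8 CPM in 245, and at 6 wk, at 1322 CPM in 13 cells and 234 CPM in 141. At 5 wk the values were 2509 CPM in 37 cells and 3104 CPM in 569 cells, the opposite order, and at 4 wk they were close, at 431 and 401 CPM. Cluster m8 made up 73.7% of the cells with a Ren1 UMI and 22.4% of those without at 2 wk. At 5 wk these shares were 43.2% and 83.3%, so this comparison is not separate from that of the clusters.

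Among classes with at least 50 cells, pericyte-like cells at 2 wk were the other place with Ren1 above 10 CPM. There it was 21.1 CPM, from 26 UMIs in 5 of 137 cells, and it was 4.63 CPM at 3 wk, 0 at 4 and 5 wk and 1.57 CPM at 6 wk. Early theca-like cells, marked by Hhip and Mest, had 6.28 CPM at 2 wk, of which 24 of 42 UMIs lay in 1 cell, and 0.817 to 1.47 CPM later. Renin-producing cells of the kidney belong to the mural lineage, and this is given as background only.

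Ace, which encodes the converting enzyme, was highest in a stromal class with the libraries summed, although at 3 wk blood endothelial-like cells, at 68.2 CPM, were above it. Cd24a stromal-like cells, which also express Col15a1 and Ramp3, had 167, 43.2, 92.5, 95.3 and 89.1 CPM. The other stromal-like groups together had 52.3, 16.3, 18.1, 11.9 and 12.5 CPM, and the ratio between them was 3.20 (2.89 to 3.54), 2.64 (2.10 to 3.33), 5.10 (4.14 to 6.33), 7.98 (6.30 to 10.2) and 7.12 (5.89 to 8.65). Cd24a stromal-like cells were above the others in every library. Cxcl12 stromal-like cells were next to them at 2 wk, at 87.9 CPM, but had 20.3, 17.2, 14.9 and 14.7 CPM afterwards.

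At 2 wk Ace was higher than at later ages in most of the mesenchyme. Early theca-like cells had 71.3, 22.3, 21.8, 28.6 and 19.0 CPM, Col11a1 stromal-like cells 62.2, 27.7, 13.9, 6.26 and 5.95 CPM and smooth muscle-like cells 18.4, 8.14, 6.72, 2.93 and 1.59 CPM (without integration, the last class had 1.02 times its 2 wk level at 3 wk). Col11a1 stromal-like cells had 3 hemoglobin genes among their leading genes, and so had cluster m13, which made up 580 of the 1628 Cd24a stromal-like cells. The part of these genes in the values of both classes was not tested. Of the classes above the UMI limit, 7 of 9 were called lower at 3 wk than at 2 wk, 4 of 11 at 4 wk, 7 of 10 at 5 wk and 8 of 10 at 6 wk. Over all pairs of a gene and a class, 5.59%, 7.11%, 4.72% and 4.32% were called lower at these ages. The single call in the other direction was remodeling-like granulosa at 4 wk, at 2.56 (1.48 to 4.85) times its 2 wk level.

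Among vessel cells Ace and Agt had opposite places. Blood endothelial-like cells had Ace at 77.6, 68.2, 46.9, 26.3 and 16.7 CPM, a lower level at each later age, while pericyte-like cells had 2.43, 8.10, 2.28, 1.16 and 0.787 CPM. The ratio, endothelial-like over pericyte-like, was 31.9 (10.5 to 158) at 2 wk, 8.42 (3.47 to 23.3) at 3 wk, 20.6 (5.19 to 178) at 4 wk, 22.7 (6.15 to 189) at 5 wk and 21.2 (5.35 to 184) at 6 wk. The endothelial-like class was shallow at 3 wk (68 cells, median 2217 UMIs) and deep at 5 wk (268 cells, median 15358.5 UMIs), and called doublets made up 6.72% of it and 3.60% of pericyte-like cells; the part of depth was not tested. Without called doublets the Ace ratio at 2 wk was 92.2, and as a mean of each cell's CPM it was 75.3. Hematopoietic-like cells also had Ace, at 25.5, 17.7, 17.6, 21.9 and 11.3 CPM, so a share of cells at their level cannot be read as free RNA alone.

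In granulosa-like cells the ratio of the remodeling-like to the antral-like group was larger for Ace than for Agt from 3 wk on, at low levels of Ace. Remodeling-like cells had 9.20, 6.10, 23.5, 17.4 and 7.58 CPM. Antral-like cells had 0.528, 0.352, 1.25, 1.15 and 0.113 CPM, from 1, 1, 8, 5 and 1 UMIs. The ratio was 17.4 (2.62 to 740), 17.3 (2.40 to 760), 18.8 (9.43 to 43.8), 15.1 (6.38 to 47.1) and 66.9 (11.7 to 2666), and its interval lay above 1 at all 5 ages. All 6 pairs of clusters had an interval above 1 at 4, 5 and 6 wk, 3 of them at 5 and at 6 wk against a count of 0. Cluster g5 had 36.5, 24.3 and 10.8 CPM, g9 had 28.7, 17.6 and 8.53 CPM and g3 had 11.99, 6.54 and 3.099 CPM, so the order of the 3 clusters was the same for Ace as for Agt. Preantral-like cells had 1.19 to 3.81 CPM. The remodeling-like level was not above that of hematopoietic-like cells beyond counting error at any age, at 0.361, 0.345, 1.33 (0.770 to 2.53), 0.794 and 0.672 times it.

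Theca-like cells had next to no Ace, although the early theca-like cells beside them did. The theca-like levels were 3.53, 2.07, 0.811, 0.296 and 1.54 CPM, and the ratio to stromal-like groups was between 0.00754 (0.00205 to 0.0195) at 5 wk and 0.0848 (0.0363 to 0.169) at 3 wk. In cluster m8 1 Ace UMI was found in all 894 cells. Theca-like over early theca-like cells the ratio was 0.0495 (0.0236 to 0.0919) at 2 wk and 0.0103 (0.00276 to 0.0274) at 5 wk.

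Enpep encodes aminopeptidase A, which removes the first residue of angiotensin II. With the libraries summed it was highest in Cd24a stromal-like (199 CPM) and mitotic mesenchymal-like cells (154 CPM). Theca-like (135 CPM), early theca-like (110 CPM) and pericyte-like cells (84.6 CPM) came next. Unnamed cells held 32.1% of its UMIs with 23.0% of all UMIs. Enpep was close to absent from granulosa-like cells, where no library of the preantral-like, antral-like or remodeling-like groups was above 1.42 CPM. Cd24a stromal-like cells had 171, 165, 159, 225 and 252 CPM and early theca-like cells 62.6, 74.6, 102, 169 and 171 CPM. Pericyte-like cells had 55.1, 56.7, 42.2, 92.2 and 118 CPM against 6.55, 18.6, 13.4, 10.7 and 17.3 CPM in blood endothelial-like cells. Early theca-like and pericyte-like cells were thus highest at 6 wk. Each class named here with at least 50 cells in every library was above the granulosa-like groups in all 5 libraries.

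Theca-like Enpep was 137, 127, 124, 60.6 and 465 CPM, with its lowest value at 5 wk and its highest at 6 wk. The ratio, theca-like over stromal-like, followed, at 2.69 (2.39 to 3.03), 2.12 (1.89 to 2.38), 1.65 (1.46 to 1.85), 0.611 (0.557 to 0.670) and 4.40 (4.10 to 4.71). The value at 5 wk was 1.06 after removal of cells below 1000 detected genes or at 10% or more mitochondrial UMIs and 2.99 when the libraries were not integrated. At 5 wk 490 of the 606 theca-like cells were of cluster m8, in which Enpep was 9.59 CPM, while cluster m12 had 289 CPM. Both the mix of the clusters and the level within each differed by age, and the part of each was not tested. Across the ages m8 had 103, 78.5, 55.1, 9.59 and 496 CPM, and m12 had 157, 166, 214, 289 and 448 CPM, a higher level at each later age. Cluster m8 had its highest Cyp17a1 level at the age of its lowest Enpep level.

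Of the 8 genes, Ren1 and Enpep were called higher in theca-like than in stromal-like cells at 2, 3 and 6 wk, Ren1 alone at 5 wk and none at 4 wk. Over all genes 5.16%, 5.33%, 4.94%, 13.8% and 6.98% were called higher at these ages in that order. At 2, 3, 4, 5 and 6 wk 7, 7, 5, 7 and 6 of the 8 genes were above the UMI limit. Ren1 at 4 wk was under it and could not be called, with 15 UMIs in theca-like and 11 in stromal-like cells. Ace was called lower at every age. At 3 wk Agt, and at 5 wk Agt and Agtr2, were called lower too. Over all genes 12.1%, 12.9%, 12.9%, 17.4% and 13.4% were called lower at 2, 3, 4, 5 and 6 wk.

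**Figure D3:**
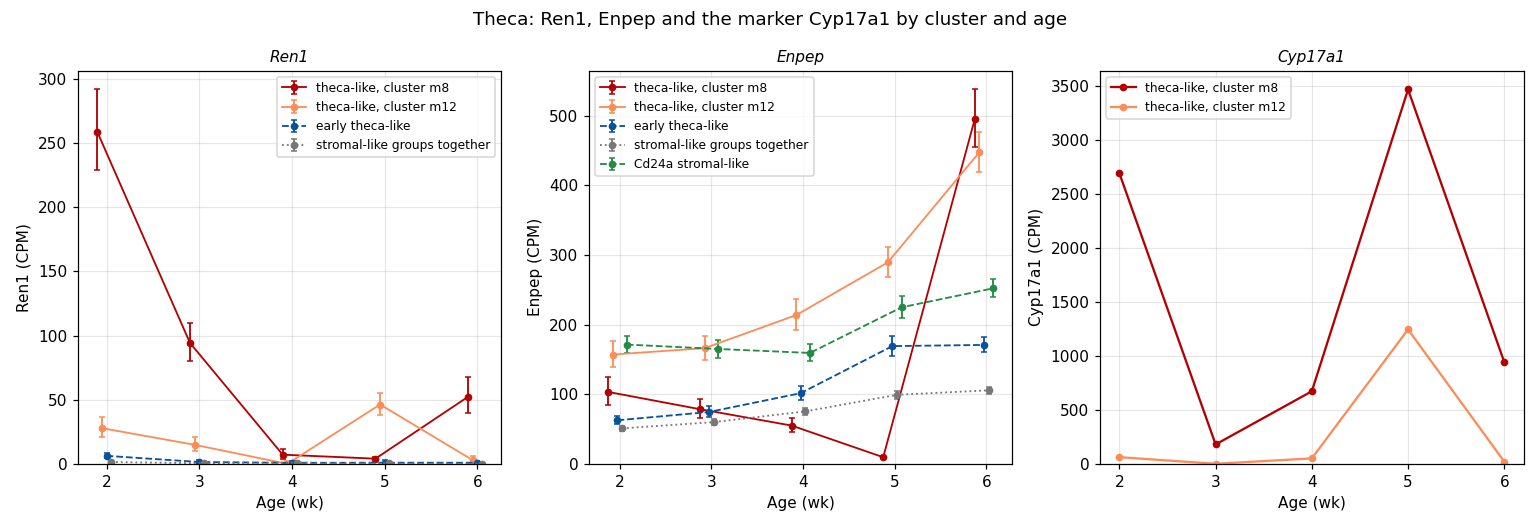
Level in CPM by age of Ren1 (left) and Enpep (middle), with exact 95% counting intervals, in theca-like clusters m8 and m12, early theca-like cells and stromal-like groups, and of the theca marker Cyp17a1 (right) in the 2 theca-like clusters. Ren1 is highest in m8 at 2 wk (259 CPM), and at 5 wk m8 has the highest Cyp17a1 (3469 CPM) and the lowest Enpep (9.59 CPM).

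Lnpep encodes the insulin-regulated aminopeptidase, the receptor of the shortened peptide angiotensin IV, and was present in every class. Its level with the libraries summed ranged from 32.2 CPM in mitotic granulosa-like cells to 90.05 CPM (80.2 to 101) in surface epithelial-like cells, with remodeling-like granulosa cells next at 76.3 CPM (73.8 to 79.0). Remodeling-like cells had 43.9, 48.8, 63.0, 93.4 and 83.4 CPM and antral-like cells 43.3, 38.0, 38.7, 55.2 and 52.6 CPM. Both groups were alike at 2 wk and apart from 4 wk on. The ratio was 1.013 (0.717 to 1.43), 1.29 (0.940 to 1.75), 1.63 (1.42 to 1.88), 1.69 (1.47 to 1.95) and 1.59 (1.42 to 1.77), with all 6 pairs of clusters above 1 at 4, 5 and 6 wk. It was not past 2-fold at any age. Here cluster g3 was the highest or next to it, at 65.0, 104 and 93.8 CPM, which was not its place for Agt and Ace.

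The receptors of angiotensin II were rare and lay in different cells from each other. Agtr1a, the AT1 receptor gene, had 506 UMIs, of which pericyte-like cells held 47.6% with 1.2% of all UMIs. Pericyte-like levels were 82.6, 25.5, 35.3, 17.4 and 22.0 CPM, and each of them was above the 2.66 to 9.11 CPM of Col14a1 stromal-like cells, the next class. An Agtr1a UMI was found in 16.5% (14.1 to 19.2) of pericyte-like cells, 8.83% when thinned, against 0.202% of hematopoietic-like cells. In blood endothelial-like cells 1 UMI was found in 714 cells. The level was at least 25.2-fold lower there than in pericyte-like cells at 2 wk and at least 12.3-fold lower at 6 wk, taking 3 UMIs as the floor. Later pericyte-like levels were 0.308 (0.185 to 0.492), 0.428 (0.276 to 0.645), 0.211 and 0.267 times that at 2 wk.

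The same vessel classes differed in 3 of the 8 genes in the same direction. Agt and Enpep were called lower in endothelial-like than in pericyte-like cells at 2, 3, 5 and 6 wk and Agt alone at 4 wk, Agtr1a was called lower at 2 and 6 wk, and Ace was called higher at 2 and 5 wk. Of all genes 10.1%, 13.0%, 11.4%, 10.5% and 12.4% were called lower at 2, 3, 4, 5 and 6 wk, and 10.8% and 15.4% were called higher at 2 and 5 wk. At 3, 4 and 6 wk 3 to 5 of the 8 genes were above the UMI limit and no call was in the higher direction, where 9.78%, 9.14% and 10.6% of all genes were. Ace was under that limit at these 3 ages and could not be called. Its ratio, given above, had an interval above 1 at each of them.

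Agtr2 encodes the AT2 receptor and was highest at 2 wk in most classes that had it. Col14a1 stromal-like cells, adventitial fibroblasts by their markers Pi16 and Clec3b, had 69.1, 22.6, 9.20 and 22.1 CPM at 2, 3, 4 and 5 wk, and at 6 wk only 49 cells were left. Theca-like cells had 29.0, 3.88, 2.97, 1.55 and 2.47 CPM, Hoxd9 stromal-like cells 21.8, 4.55, 0, 0.803 and 0.608 CPM and smooth muscle-like cells 20.9, 3.44, 1.24, 3.70 and 0.353 CPM. In each of these classes the 2 wk library was above all later ones. Of the classes above the UMI limit, 5 of 5 were called lower at 3 wk than at 2 wk, 6 of 7 at 4 wk, 4 of 6 at 5 wk and 4 of 6 at 6 wk, where 5.59%, 7.11%, 4.72% and 4.32% of all pairs of a gene and a class were.

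Granulosa-like cells differed by stage in how Agtr2 changed with age. Antral-like cells had 16.9, 0.703, 0.783, 0.920 and 0.567 CPM and remodeling-like cells 15.6, 0.678, 1.89, 1.009 and 3.38 CPM. Preantral-like cells had 14.7, 6.92, 11.1, 12.97 and 18.1 CPM, which was called lower at 3 wk, at 0.472 (0.390 to 0.568) times the 2 wk level, and at no later age, so that at 6 wk the antral-like level was 0.0313 (0.0101 to 0.0739) times theirs and at 2 wk 1.15 (0.779 to 1.65) times. The unnamed clusters g1, g6 and g10, which are in neither group, had 18.1, 5.49 and 40.3 CPM at 2 wk. At 6 wk they had 3.16, 2.04 and 2.21 CPM, above the antral-like and below the preantral-like level. Within the preantral-like class the clusters g2, g4 and g7 had at least 7.20 CPM at every age, while g11 had at most 3.11 CPM. Of preantral-like cells 10.9% had an Agtr2 UMI (3.36% when thinned), and the hematopoietic-like share was 0.605% (0 when thinned). At 6 wk remodeling-like cells were 5.97-fold (2.38 to 19.3) above antral-like ones. This ratio was 0.979 without integration of the libraries and 1.98 with the granulosa clusters grouped by their match to the published ones, and it was led by cluster g9, at 16 CPM, where g3 had 2.52 CPM and g5 0.458 CPM.

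**Figure D4:**
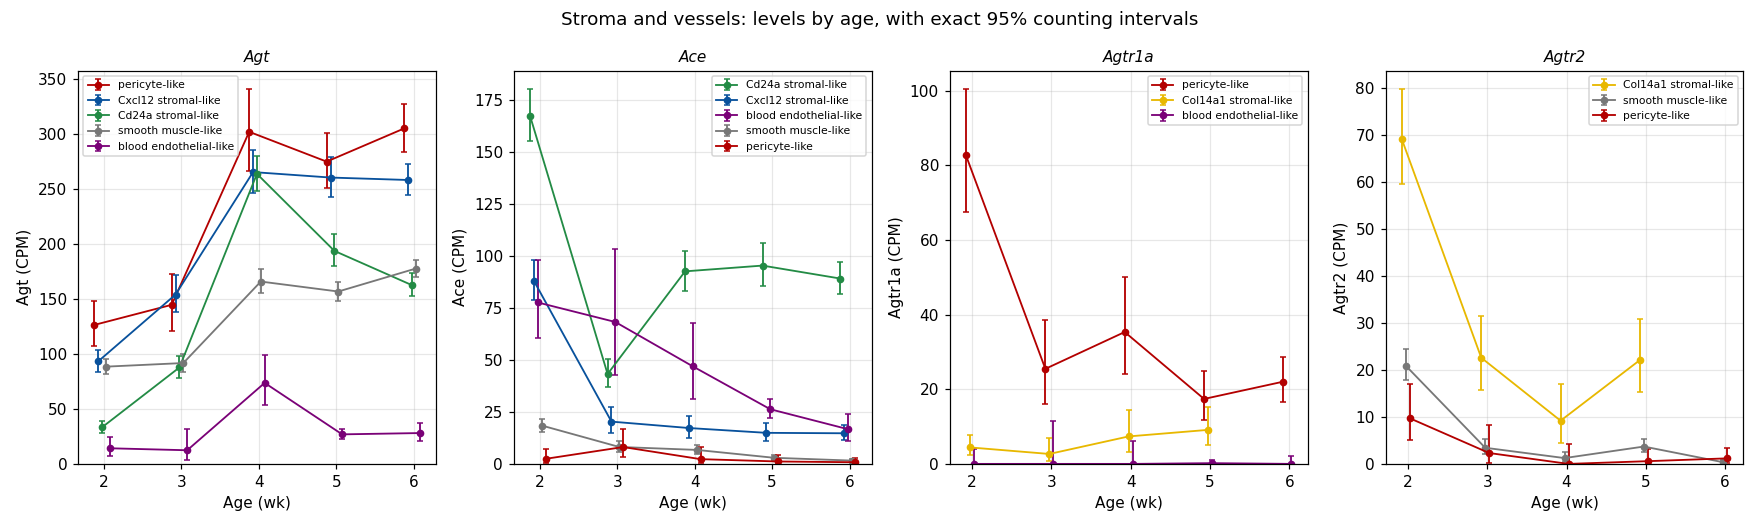
Level in CPM by age, with exact 95% counting intervals, of Agt, Ace, Agtr1a and Agtr2 in stromal-like, smooth muscle-like and vessel classes with at least 50 cells. Agt is higher from 4 wk in pericyte-like, Cxcl12 and Cd24a stromal-like cells, while Ace in Cxcl12 stromal-like and endothelial-like cells, Agtr1a in pericyte-like and Agtr2 in Col14a1 stromal-like cells are highest at 2 wk.

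Atp6ap2 encodes the prorenin receptor, which is also an accessory subunit of the vacuolar proton pump, and was present in every class, as was Lnpep. With the libraries summed it ranged from 35.9 CPM in mitotic granulosa-like cells to 115 CPM in hematopoietic-like (105 to 125) and rete ovarii-like (96.1 to 137) cells. Hematopoietic-like cells had 81.2, 131, 93.7, 132 and 121 CPM, and in each library they were above the theca-like cells, which had 49.4, 43.7, 47.9, 59.4 and 57.2 CPM. No class was called higher or lower at 3, 4, 5 or 6 wk than at 2 wk, with every one of the 15 or 16 classes above the UMI limit. Few pairs of any gene and a class were called at these ages (1.81% to 4.13% higher and 4.32% to 7.11% lower), so the absence of calls does not set Atp6ap2 apart. In remodeling-like over antral-like granulosa cells the ratio was 0.913 (0.780 to 1.07), 1.26 (1.06 to 1.504) and 1.07 (0.935 to 1.23) at 4, 5 and 6 wk.

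Other genes of the pathway, a list of 16 with the alternative enzymes and receptors, added few further places. Of these, 12 reached 10 CPM in at least 1 class. Prcp, a carboxypeptidase that removes the last residue of angiotensin II, was highest in blood endothelial-like cells at 105 CPM (98.2 to 112). Mme, which encodes neprilysin, was highest in rete ovarii-like cells at 534 CPM (492 to 578). The receptors Agtr1b, Mas1 and Mrgprd were below 1 CPM in every class, with 26, 8 and 7 UMIs in all cells.

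Cma1, a chymase gene, and Cpa3, the gene of carboxypeptidase A3, are expressed by mast cells and were found in a few hematopoietic-like cells. Cma1 was at 534 CPM (513 to 557) and Cpa3 at 276 CPM (260 to 292) in that class, and 13 of its 496 cells, those with at least 2 Cpa3 UMIs, held 99.3% of its 2289 Cma1 UMIs. Single libraries ranged from 0 to 2216 CPM of Cma1 in that class. In the granulosa comparison, 7 of the 16 genes were above the UMI limit at each of 4, 5 and 6 wk. Mme was called higher in remodeling-like cells at 4 wk, where 9.96% of all genes were. Thop1, a peptidase of the cytosol, was called lower at 5 wk, where 4.42% of all genes were. In theca-like over stromal-like cells 8 of the 16 genes were above the limit at 2 wk and 9 at each later age. Anpep, which encodes aminopeptidase N, was called lower at all 5 ages, where 12.1% to 17.4% of all genes were. Mme was called higher at 4, 5 and 6 wk and Prep at 5 wk. Of all genes 6.98%, 13.8% and 4.94% were called higher at 4, 5 and 6 wk. In endothelial-like over pericyte-like cells Prcp was called higher at 2, 5 and 6 wk, with 4, 8 and 7 of the 16 genes above the limit. Of all genes 10.8%, 15.4% and 10.6% were called higher there.

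The genes whose level followed a member most closely over 20 groups, by Pearson's r of log2(CPM + 1), were named from 12525 genes as a description, since the groups come from the same 5 libraries. Closest to Enpep were Lamc3 (r = 0.957), Akr1b8 (0.925) and Fxyd7 (0.901), the first of these a laminin chain that was highest in the same Cd24a stromal-like class. To Agtr1a the closest were Cpxm2 (0.909), Rdh5 (0.873) and Bhlhe22 (0.869), all highest in pericyte-like cells. For Atp6ap2 they were Ppp1r21 (0.929), Atp6v1a (0.922) and Ctsb (0.920), and Atp6v1a encodes a subunit of the same proton pump. The closest to Agt were Tmeff2 (0.765), Art4 (0.761) and Zmat3 (0.743), to Ren1 Fads2 (0.811), Klhl23 (0.810) and Tubb3 (0.798), and to Ace Pxk (0.788), Mmp2 (0.784) and Tgfbi (0.783). Agtr2 was followed by Angptl1 (0.784), Fyb2 (0.757) and Fam198a (0.748), and Lnpep by Dusp22 (0.907), Wipf2 (0.904) and Cnppd1 (0.893).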

How the data were processed

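The authors aligned the reads and counted UMIs with Cell Ranger, version 3.1.0 for 2, 3 and 4 wk and 6.0.1 for 5 and 6 wk per the file headers, on mm10 (GRCm38), and the deposited tables hold whole-number UMI counts per gene and cell barcode. The 8 genes, the wider list of 16 and the marker lists were chosen with earlier results of these data known, and the limits used to name clusters were chosen with the clusters in view. Here the deposited cells (48163) were clustered with Seurat 5.3.0 in R 4.3.3 after integration of the 5 libraries (2000 variable genes, 30 components of 50 computed, resolution 1, seed 1), and the granulosa-like and mesenchymal cells were clustered a second time. Of the variable genes 10 of the renin-angiotensin lists were left out, 5 of them among the 8 genes. A cluster was named from at least 3 markers, each detected in at least 10% of its cells and at 1.5 times its median level over clusters. Doublets were called with Scrublet in scanpy 1.11.5 and kept.

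UMIs were summed per class and library with at least 50 cells, in Python 3.11.15 with numpy 2.4.6, scipy 1.17.1 and pandas 2.3.3. Levels carry exact Poisson intervals, ratios exact intervals conditional on the summed count, and shares Clopper-Pearson intervals, all at 95%. A UMI counts 1 molecule once, but intervals and the floor of 3 UMIs cover counting error only. Total counts per library were 93438618 to 144609431 UMIs. With 1 library per age no test between groups was run. The text names all 8 genes, genes of the wider list of 16, of which a gene is not reported here, and, for each of the 8, the 3 genes most like it in log2(CPM + 1), among genes at 10 CPM or more in at least 1 group. The calculation of the ratio was checked on simulated Poisson counts for remodeling-like over antral-like cells at 5 wk. Of 200 changed genes among 10535, 97.0% came out on the right side, and the 95% interval held the true ratio for 95.5% of them. The interval assumes such counts, so this checks the calculation and not the spread of the real counts between cells or mice. Of the alternatives 12 were set beforehand and 2 were added after seeing the data. The deposited tables have no columns left unmapped. Promoter sequences are from RefSeq.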

Additional observations from a re-analysis of the deposited data

How the results depend on the processing

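Of 2718 values under other settings, 2442 stayed within the counting interval of the main value, 258 moved beyond it and a further 18 changed direction where that interval had not held 1. The 2442 include values that a setting could not move. Grouping the granulosa clusters by their match to the published ones, with 253 of 261 values within the interval, was also scored on theca-like, stromal-like and vessel results, which it leaves unchanged. For Agt in remodeling-like over antral-like granulosa cells, main ratios 1.66, 2.18 and 3.53 at 4, 5 and 6 wk, the values were 4.35, 5.73 and 7.51 at resolution 0.6, 2.15, 2.74 and 4.24 at resolution 1.5, 1.98, 4.33 and 4.42 without integration, and 1.94 at 4 wk and 4.03 at 6 wk with the renin-angiotensin genes kept for clustering. They were 2.13 at 4 wk and 2.50 at 5 wk with clusters grouped by their match to the published granulosa clusters, 4.07 at 6 wk as a mean of each cell's CPM, and 1.86, 2.42 and 4.91 with the hematopoietic-like level subtracted, which, like the comparison of each theca cluster with the stromal groups, was chosen after seeing the data. Between single clusters, g3 over g12 gave 0.664, 0.745 and 1.14, g3 over g8 1.94, 2.44 and 4.20, g5 over g8 6.01, 6.57 and 8.87, g9 over g8 5.34, 3.96 and 8.05, g9 over g12 1.83, 1.21 and 2.19, and g5 over g12 2.05 at 4 wk and 2.41 at 6 wk. Ace at 4 wk was 9.04 in g3 over g12 against 18.8 in the groups. Thinning to 3000 UMIs gave Agt in 34.98% of remodeling-like and 19.49% of antral-like cells at 5 wk.

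Enpep in theca-like over stromal-like cells at 6 wk was 4.98 with the pathway genes kept, 3.95 at resolution 0.6, 6.16 as a mean of each cell's CPM and 4.75 without mitochondrial and ribosomal protein genes in the total, against 4.40. Ren1 at 2 wk was 527 without integration, 177.1 in cluster m8 and 19.1 in m12 against 76.9. Agt in endothelial-like over pericyte-like cells at 5 wk was 0.0775 without doublets and 0.0280 with the hematopoietic-like level subtracted, against 0.0977. Agt in Cxcl12 stromal-like cells at 4 wk over 2 wk was 2.37 with the pathway genes kept, 3.88 in cluster m11, 3.27 with clusters weighted equally and 8.08 after the subtraction, against 2.85. The hematopoietic-like level subtracted at 2 wk was 63.7 CPM, with 23 of its 40 UMIs in 1 cell. The value of 8.08 thus cannot be read as a change freed of background.

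Direction changed without integration for Agtr2 in remodeling-like over antral-like cells at 6 wk (0.979), Agtr2 (0.685 at 2 wk) and Enpep (2.99 at 5 wk) in theca-like over stromal-like cells, Ace in smooth muscle-like cells at 3 wk (1.02) and Enpep in theca-like cells at 5 wk (2.22), the last 2 over 2 wk. Enpep in theca-like over stromal-like cells at 5 wk was 1.06 after the filter on genes and mitochondrial UMIs and 2.92 in cluster m12, and at 4 wk it was 0.730 in m8. Agt in that comparison was 1.72 in m8 at 6 wk and 1.08 in m12 at 5 wk. Over 2 wk at 5 wk, m12 alone gave 1.66 for Ren1 and 1.84 for Enpep, and equal weights gave 1.15 for Enpep in theca-like cells. Other single clusters gave 1.06 for Atp6ap2 in g9 and 0.987 for Lnpep in m11 at 5 wk, and 1.34 for Lnpep in m15 at 3 wk. The cause of these differences was not tested. Some settings left a class under 50 cells or a pair under the limit of 50 UMIs and gave no value, among them Agtr2 in the granulosa comparison at 6 wk with the pathway genes kept and at resolutions 0.6 and 1.5. Ages could not be paired, since each is 1 library, and an analysis of classes paired by library was not run. Low counts limit Ace in antral-like (1 to 8 UMIs per age) and pericyte-like cells (2 to 7 UMIs), and Ren1 in stromal-like cells (4 to 29 UMIs). Age and Cell Ranger version cannot be told apart.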
